A study of Mus musculus with 10 samples.

Results

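The genes described here encode potassium channel subunits. They were chosen by symbol alone, as every protein-coding gene of the annotation named Kcn followed by family letters and a number, and there were 93 of them among 57185 genes with counts. Of the 93, 47 had more than 10 counts in at least 6 of the 10 mice and could be compared between genotypes, beside 13453 genes compared in all. The other 46 comprised 10 genes with no count in any mouse, 22 more that never exceeded 10 counts, and 14 that exceeded 10 counts in at least 1 mouse.

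RNA came from the apical portion of the ventricles of 10 male mice, labelled as left ventricle, with 1 poly(A)-selected library per mouse. The control group, MLPKO, was 5 MLPKO-RADfl/fl mice, which lack muscle LIM protein (MLP, encoded by *Csrp3*) and are a model of dilated cardiomyopathy. The other group, labelled MLPKO-cRADKO and written here as cRADΔ/Δ-MLPKO, was 5 MLPKO-RADfl/fl mice that also carried MYH6-MerCreMer, a tamoxifen-inducible Cre recombinase driven by a cardiomyocyte promoter, which deletes the gene for RAD (*Rrad*). RAD is a small GTPase that restrains the L-type calcium channel. Both groups received 1 tamoxifen dose of 100 mg/kg at 10 weeks of age, and by the labels hearts were collected 1 month later and at 16 weeks of age, which do not add up to the same age. Both groups are MLP knockouts by the labels, no group with MLP is present, and the MerCreMer transgene is present in 1 group only, so its presence and the loss of RAD cannot be told apart. The comparison addresses whether potassium channel transcripts differ when RAD is deleted from cardiomyocytes of a heart that already has dilated cardiomyopathy.

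Potassium channels repolarise the cardiomyocyte after each beat and hold its resting potential between beats. Voltage-gated alpha subunits form the pores that open during the action potential, auxiliary subunits bind them and change their gating and their number at the surface, inward rectifiers and 2-pore channels carry current near rest, and calcium- or sodium-activated channels open with the ion inside the cell. In the mouse ventricle the fast transient outward current, carried by Kv4 alpha subunits together with KChIP2, dominates early repolarisation, and the inward rectifier current of the Kir2 subunits sets the resting potential.

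Counts per library totalled 33457406 to 49965101 in MLPKO and 33759811 to 46280882 in cRADΔ/Δ-MLPKO. Values below are counts per 1000000 (CPM) with library sizes scaled by TMM, a factor that corrects for a few genes taking a large share of the counts. Mitochondrially encoded genes took 15.8% to 21.2% of counts in MLPKO and 21.4% to 22.6% in cRADΔ/Δ-MLPKO. The paper reports by western blot that RAD protein was lost from cRADΔ/Δ-MLPKO hearts after tamoxifen. The targeted gene *Rrad* had 140 to 282 CPM in MLPKO and 135 to 202 CPM in cRADΔ/Δ-MLPKO. Its log2 fold change was -0.38 (SE 0.20, edgeR adjusted p = 0.29). The *Rrad* count did not separate the genotypes and is no check of the labels. This count spans the entire gene and every cell type present, and why it did not separate the genotypes was not tested. *Csrp3*, the gene knocked out in both groups by the labels, was nevertheless counted at 1009 to 3261 CPM in MLPKO and 691 to 1177 CPM in cRADΔ/Δ-MLPKO, with overlap and a log2 fold change of -1.08 (SE 0.29, edgeR adjusted p = 0.0667, DESeq2 adjusted p = 0.0362). Whether these reads come from a transcript that makes protein was not tested. The cardiomyocyte marker sum (*Myh6*, *Tnnt2*, *Tnni3*, *Actc1*, *Pln* and *Ryr2*) was 55943 to 65666 CPM in MLPKO and 44717 to 54875 CPM in cRADΔ/Δ-MLPKO, with 1 of the 6 genes lower by test (*Tnnt2*) and log2 fold changes from -0.57 (*Tnnt2*) to 0.13 (*Tnni3*). *Myh6* made up most of that sum, with means of 36497 CPM in MLPKO and 29887 CPM in cRADΔ/Δ-MLPKO (edgeR adjusted p = 0.104, DESeq2 adjusted p = 0.0193). Atrial markers summed to 2.75 to 6.24 CPM and 2.24 to 24.6 CPM. MLPKO mouse 2 differed most from the rest of its group, with an SD of log2 ratios to the other 4 mice of 0.52 to 0.70 over all genes against 0.39 to 0.51 among those 4. It was the lowest mouse of its group in 21 of the 47 channel genes (44.7%), against 28.4% of all genes tested. Values without it are given for several of the genes whose fold change moved when it was left out.

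Most of the potassium channel RNA in these ventricles came from few genes. Per kilobase of exon, which allows levels of different genes to be set side by side, *Kcnk3* (TASK-1, an acid-sensitive 2-pore leak channel) was highest with a mean of 38.2 CPM per kb over the 10 mice. *Kcnip2* (KChIP2, the auxiliary subunit of Kv4 channels) followed with 35.1 CPM per kb and *Kcnj11* (the pore of the ATP-sensitive channel of cardiomyocytes) with 32.8 CPM per kb. The ranges of these 3 genes over the mice overlapped, at 35.6 to 44.3, 19.0 to 56.6 and 27.9 to 38.7 CPM per kb. *Kcng2*, a silent alpha subunit that modifies other voltage-gated channels, stood at 17.2 CPM per kb (13.2 to 22.2), and *Kcnh2*, the pore of the rapid delayed rectifier current, at 13.6 CPM per kb (8.25 to 17.9). Exons of *Kcng2* overlap *Slc66a2*, D330025C20Rik and Gm26676 on the other strand, and *Kcnk3* overlaps Gm9899. The strand setting of the counting is not given in the sources used here. The 5 highest genes held 61.7% of the summed level per kb of all 93 genes, and the 10 highest held 80.8%. The next 4 in order of level per kb were *Kcnj5*, *Kcnj8*, *Kcnj2* and *Kcnj3*, with means of 9.82 down to 7.95 CPM per kb and ranges that overlapped between neighbours in this order. At the other end, 26 of the 47 genes averaged under 1 CPM per kb, with *Kcnma1* the lowest at 0.032 CPM per kb. Summed over all 93 genes and taken by unscaled library totals, the level was 1136 to 1420 CPM in MLPKO and 1357 to 1523 CPM in cRADΔ/Δ-MLPKO.

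**Figure D1:**
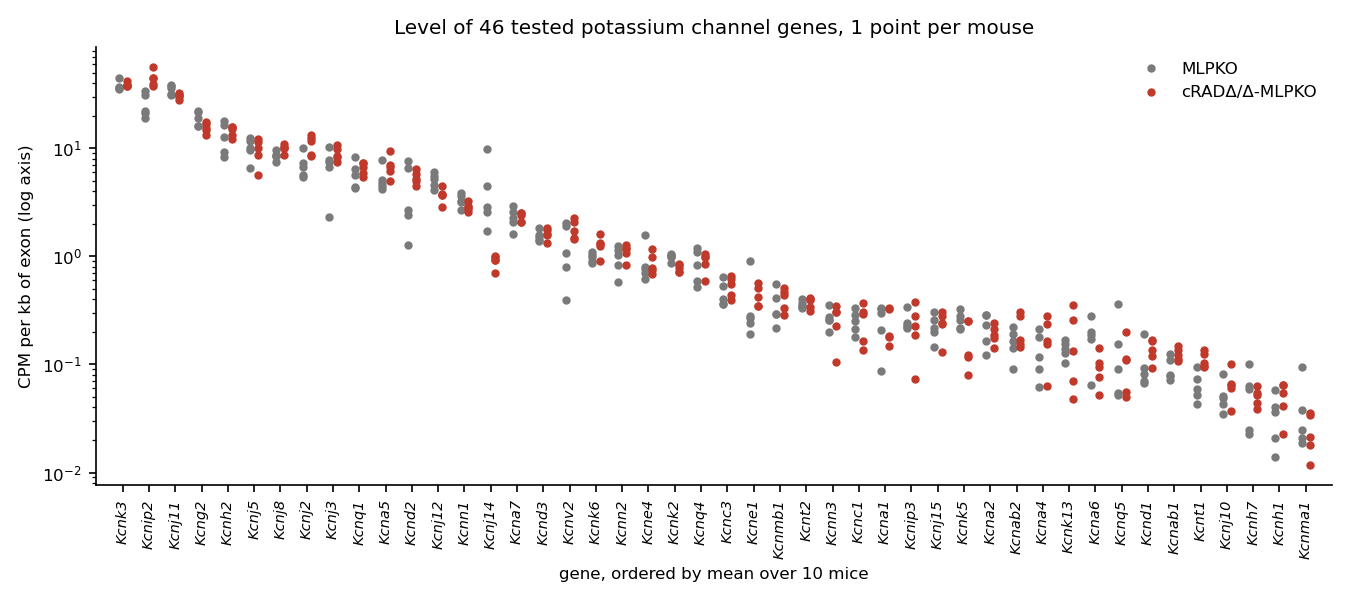
Level of 46 of the 47 tested genes as CPM per kb of exon on a log axis, with genes ordered by their mean over 10 mice and 1 point per mouse (grey, MLPKO; red, cRADΔ/Δ-MLPKO). *Kcnk3*, *Kcnip2* and *Kcnj11* lead at 38.2, 35.1 and 32.8 CPM per kb, and the red points of *Kcnj14* lie below all of its grey points.

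Between genotypes, *Kcnip2* rose and *Kcnj14*, a Kir2 inward rectifier gene, fell in cRADΔ/Δ-MLPKO, and no other gene of the 47 passed an adjusted p of 0.05 in edgeR. The 2 genes are 4.26% of the 47, against 2.74% of all 13453 genes (1.8% lower and 0.944% higher). An unadjusted p under 0.05 was reached by 11 of the 47 (23.4%), against 21.6% of all genes. DESeq2, the tool of the original analysis, also called these 2 and added *Kcnj2* and *Kcnt1* as higher and *Kcnj12* and *Kcnk2* as lower, 6 genes or 12.8% of the 47 against 9.65% of all genes (5.84% lower and 3.81% higher). It gave no adjusted p to 2 of the 47 (*Kcnh1* and *Kcnj10*). No CPM of any mouse of one group reached into the range of the other in 4 genes (*Kcnip2* and *Kcnt1* higher, *Kcnj14* and *Kcnk2* lower), 8.51% of the 47, against 6.62% of all genes (3.98% lower and 2.64% higher). Of the 47 log2 fold changes 30 were above 0 (63.8%, against 52.1% of all genes), and their median was 0.08 against 0.01 over all genes. In size, 38 of the 47 were under 0.5 on the log2 scale, and their median size was 0.224 over the 47 against 0.135 over all genes.

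**Figure D2:**
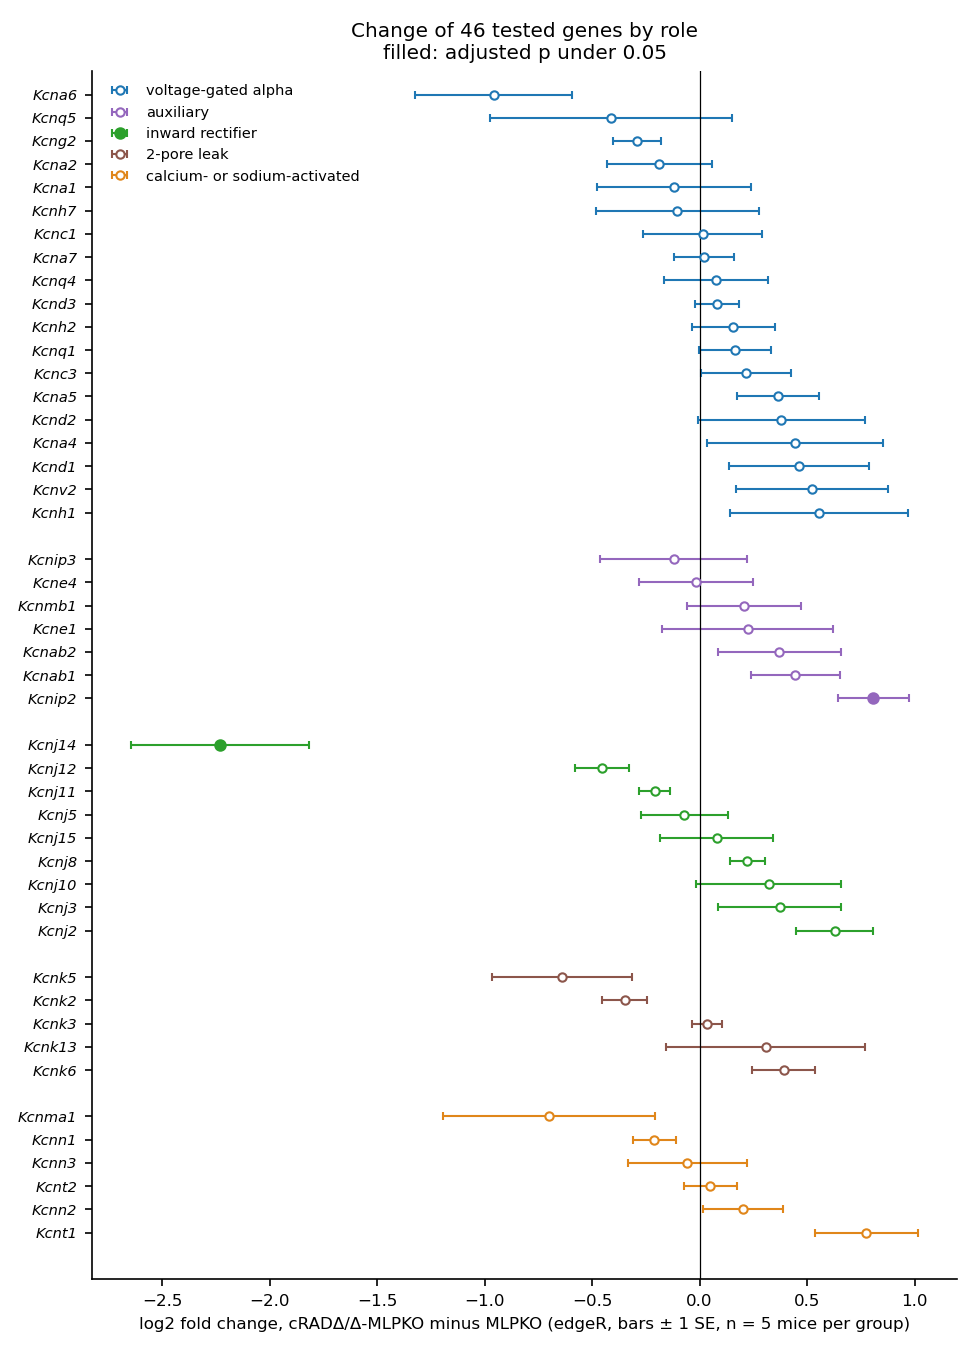
Log2 fold change (cRADΔ/Δ-MLPKO minus MLPKO, edgeR) of 46 of the 47 tested genes, with bars of 1 SE either side and n = 5 mice per group, grouped by role of the subunit. Filled points have an adjusted p under 0.05, which holds for *Kcnip2* at 0.81 and *Kcnj14* at -2.23.

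Of the genes of the transient outward current, the auxiliary subunit passed the test and the pores did not. *Kcnip2* (chromosome 19, 45780278 to 45804836 on GRCm39, minus strand) was at 88.8, 76.2, 136, 126 and 85.8 CPM in MLPKO mice 1 to 5 and at 152, 227, 159, 179 and 180 CPM in cRADΔ/Δ-MLPKO mice 1 to 5. The lowest cRADΔ/Δ-MLPKO mouse was above the highest MLPKO mouse. The group means were 102 ± 26.4 CPM and 179 ± 29.3 CPM (SD, n = 5), a log2 fold change of 0.81 (SE 0.17, edgeR adjusted p = 0.0308, higher in 5 of 5 mice). The call was lost when 1 mouse was left out in 6 of 10 cases, at an adjusted p of 0.0758 without MLPKO mouse 1, 0.0794 without MLPKO mouse 5, and 0.0633, 0.0577, 0.0683 and 0.0760 without cRADΔ/Δ-MLPKO mice 2, 3, 4 and 5, while the log2 fold change stayed between 0.71 and 0.94.

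*Kcnd2*, the Kv4 pore that carries most of this current in mouse ventricle, was at 14.0, 7.42, 38.1, 44.6 and 15.5 CPM in MLPKO and at 25.8, 28.7, 30.4, 33.6 and 37.4 CPM in cRADΔ/Δ-MLPKO. MLPKO mice 3 and 4 were above all cRADΔ/Δ-MLPKO mice and MLPKO mice 1, 2 and 5 below all of them. The log2 fold change of 0.38 (SE 0.39, edgeR adjusted p = 0.62) lay within this spread, and the SD of log2 CPM was 1.07 in MLPKO and 0.21 in cRADΔ/Δ-MLPKO. Without MLPKO mouse 2 it was 0.16. *Kcnd3*, the other Kv4 pore of the ventricle, was at 13.8 to 18.1 CPM and 13.2 to 18.4 CPM, a log2 fold change of 0.08 (SE 0.10, edgeR adjusted p = 0.70), with no such spread. Per kb, *Kcnip2* stood at 3.41 to 7.11 times the sum of *Kcnd2* and *Kcnd3* in MLPKO and 5.40 to 8.61 times in cRADΔ/Δ-MLPKO, and these ranges overlapped. *Irx3*, *Irx4* and *Irx5*, transcription factors of the Iroquois family known to shape the gradient of *Kcnd2* across the ventricular wall, had log2 fold changes of -0.20, -0.27 and -0.33 (edgeR adjusted p = 0.65, 0.27 and 0.57). *Kcna4*, the pore of the slow transient outward current, averaged 0.686 ± 0.325 CPM and 0.932 ± 0.433 CPM (SD, n = 5), with an edgeR adjusted p of 0.58.

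**Figure D3:**
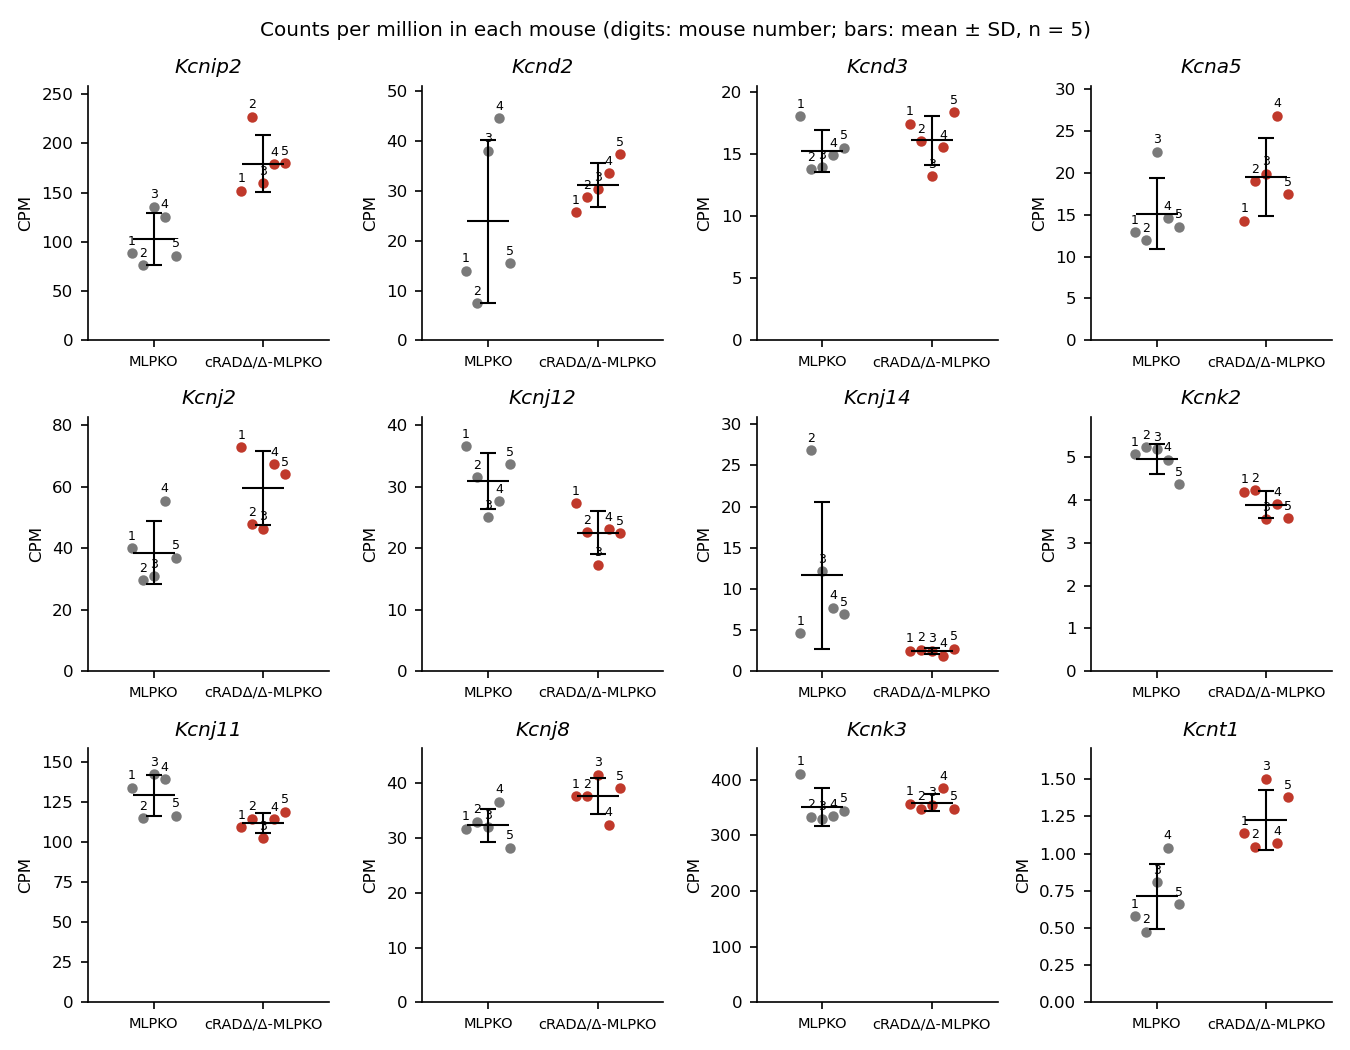
CPM of 12 genes in each mouse on linear axes from 0 (grey, MLPKO; red, cRADΔ/Δ-MLPKO; digits give the mouse number, black bars the mean ± SD of 5 mice). *Kcnip2* at 76.2 to 136 CPM in MLPKO and 152 to 227 CPM in cRADΔ/Δ-MLPKO does not overlap, while the MLPKO mice of *Kcnd2* lie on both sides of the cRADΔ/Δ-MLPKO mice.

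The Kir2 genes, which form the inward rectifier that holds the resting potential, had fold changes of both signs, and 1 of them passed the test in edgeR. *Kcnj14* (chromosome 7, 45465884 to 45474208 on GRCm39, minus strand) was at 4.62, 26.8, 12.1, 7.73 and 6.97 CPM in MLPKO and at 2.51, 2.66, 2.51, 1.92 and 2.76 CPM in cRADΔ/Δ-MLPKO. Every cRADΔ/Δ-MLPKO mouse was below every MLPKO mouse, and the MLPKO mice themselves varied widely. The means were 11.7 ± 8.90 CPM and 2.47 ± 0.328 CPM (SD, n = 5), and the log2 fold change of -2.23 (SE 0.41, edgeR adjusted p = 0.0234) was the largest in size among the 47 genes. Raw counts behind it were 200 to 846 in MLPKO and 84 to 122 in cRADΔ/Δ-MLPKO. Without MLPKO mouse 2, the highest, it was -1.67 with an edgeR adjusted p of 0.00992. The call was lost without MLPKO mouse 5 (adjusted p = 0.0505) and without cRADΔ/Δ-MLPKO mice 2, 3, 4 or 5 (0.0504, 0.0576, 0.0594 and 0.0668), and limma-voom gave 0.0619.

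*Kcnj2* (chromosome 11, 110956981 to 110967665, plus strand), the main Kir2 pore of mouse ventricle, was at 40.1, 29.7, 31.0, 55.5 and 37.0 CPM in MLPKO and at 73.0, 47.8, 46.4, 67.4 and 64.1 CPM in cRADΔ/Δ-MLPKO. The groups overlapped through MLPKO mouse 4, which was above cRADΔ/Δ-MLPKO mice 2 and 3. Its log2 fold change of 0.63 missed the threshold in edgeR and passed in DESeq2 (SE 0.18, edgeR adjusted p = 0.0756, DESeq2 adjusted p = 0.0124), and without MLPKO mouse 4 it was 0.79 with an edgeR adjusted p of 0.0195. An exon of *Kcnj2* overlaps the predicted gene Gm57334 on the other strand, and the strand setting of the counting is not given in the sources used here.

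*Kcnj12* (chromosome 11, 60912944 to 60964099, plus strand), a further Kir2 pore, had a fold change of the opposite sign, at 36.6, 31.6, 25.1, 27.7 and 33.6 CPM in MLPKO and 27.3, 22.6, 17.3, 23.1 and 22.4 CPM in cRADΔ/Δ-MLPKO. The groups overlapped through MLPKO mouse 3 and cRADΔ/Δ-MLPKO mouse 1. Its log2 fold change was -0.45 (SE 0.12, edgeR adjusted p = 0.0685, DESeq2 adjusted p = 0.0139). The last member of the family, *Kcnj4*, did not pass the count filter with raw counts of 0 to 6 (MLPKO) and 2 to 44 (cRADΔ/Δ-MLPKO).

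Set side by side per kb, the summed Kir2 level overlapped between the groups, and the shares of 2 of its genes did not. The sum was 14.2 to 20.5 CPM per kb in MLPKO and 12.4 to 18.7 CPM per kb in cRADΔ/Δ-MLPKO. *Kcnj2* took 48.7, 26.5, 39.8, 57.7 and 45.6% of it in MLPKO and 71.1, 64.8, 68.4, 72.7 and 70.3% in cRADΔ/Δ-MLPKO. *Kcnj14* took 11.3 to 48.2% and 4.16 to 7.46%. Neither of these shares overlapped between the groups, whereas the share of *Kcnj12*, 25.3 to 39.8% and 22.0 to 27.5%, did. *Kcnj2* stood at 1.22, 1.05, 1.38, 2.24 and 1.23 times *Kcnj12* per kb in MLPKO and at 2.98, 2.36, 2.99, 3.26 and 3.19 times in cRADΔ/Δ-MLPKO, again without overlap. These shares and ratios were chosen after the values of the genes had been seen and are given without a test.

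**Figure D4:**
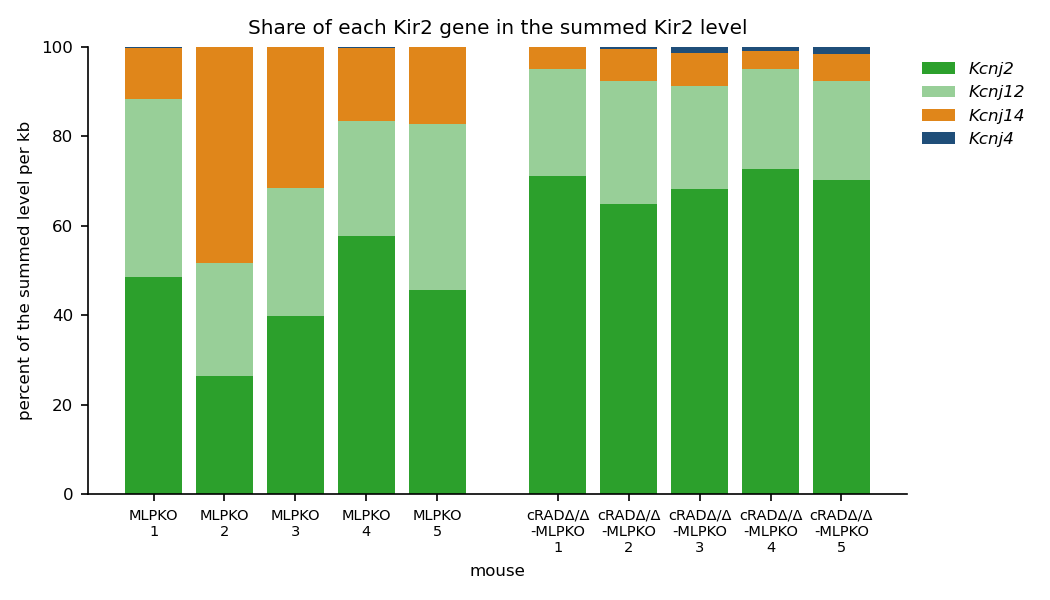
Share of *Kcnj2*, *Kcnj12*, *Kcnj14* and *Kcnj4* in the summed Kir2 level per kb of exon, as percent, 1 bar per mouse. *Kcnj2* takes 26.5 to 57.7% in the MLPKO mice and 64.8 to 72.7% in the cRADΔ/Δ-MLPKO mice, and *Kcnj14* takes 48.2% in MLPKO mouse 2.

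Sequence around the start is shown for the called gene *Kcnip2* and for *Kcnj2*, the Kir2 gene with the highest level per kb. Each is the RefSeq window from 250 bases before to 50 bases after the start on GRCm38.p6, which differs from the build of the coordinates above, read on the strand of the gene. The windows are chr19:45816014-45816313 (minus strand) and chr11:111065914-111066213 (plus strand). Capitals mark the GC box GGGCGG, the E-box CACGTG, and 4 GATA words, which are AGATAA beside its variant AGATAG as well as TGATAA beside its variant TGATAG, searched on both strands beside TATAAA and the CArG box, and no 2 matches overlap.
Kcnip2: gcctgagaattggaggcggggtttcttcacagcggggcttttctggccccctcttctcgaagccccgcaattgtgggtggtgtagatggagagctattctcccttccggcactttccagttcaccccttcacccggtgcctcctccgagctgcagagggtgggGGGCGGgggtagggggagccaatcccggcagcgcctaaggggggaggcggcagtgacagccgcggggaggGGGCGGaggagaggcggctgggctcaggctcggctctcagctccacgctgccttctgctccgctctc
Kcnj2: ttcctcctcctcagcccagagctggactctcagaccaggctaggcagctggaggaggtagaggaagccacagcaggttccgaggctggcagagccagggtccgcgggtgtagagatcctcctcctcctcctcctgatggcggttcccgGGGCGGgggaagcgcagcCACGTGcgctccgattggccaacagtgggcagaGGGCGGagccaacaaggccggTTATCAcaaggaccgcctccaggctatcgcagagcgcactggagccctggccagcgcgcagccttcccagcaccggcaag
*Kcnip2* holds GGGCGG beginning 87 and 17 bases before the start. *Kcnj2* holds GGGCGG beginning 102 and 51 bases before it, with the E-box CACGTG at 84 bases. A GATA word read on the other strand, printed in it as TTATCA, begins 30 bases before the start. Among all 32851 RefSeq windows of this length, 35.7% hold GGGCGG, 29.8% a GATA word, 13.6% TATAAA, 7.15% CACGTG and 1.63% a CArG box. Among the 92 windows of the 67 channel genes found in the table the shares were 47.8%, 21.7%, 5.43%, 7.61% and 0%. The windows contained 67.0% G and C for *Kcnip2* and 66.7% for *Kcnj2*, against a median of 58.0% over the channel gene windows and 52.7% over all windows. A match describes the letters and is not evidence of binding.

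Neither pore of the ATP-sensitive channels passed the test. *Kcnj11* was at 115 to 142 CPM in MLPKO and 102 to 119 CPM in cRADΔ/Δ-MLPKO, a log2 fold change of -0.21 (SE 0.07, edgeR adjusted p = 0.126). *Kcnj8*, the ATP-sensitive pore of vascular mural cells, was at 28.2 to 36.6 CPM and 32.4 to 41.5 CPM, a log2 fold change of 0.22 (SE 0.08, edgeR adjusted p = 0.138). Their standard errors were small, yet DESeq2 did not call them either. Per kb, *Kcnj11* stood at 3.58 to 4.56 times *Kcnj8* in MLPKO and 2.53 to 3.62 times in cRADΔ/Δ-MLPKO, overlapping in 1 mouse of each group. The 4 pericyte markers summed to 472 to 585 CPM in MLPKO and 570 to 701 CPM in cRADΔ/Δ-MLPKO, and *Rgs5* made up most of that sum. *Rgs5* was called higher (means of 330 and 447 CPM, log2 fold change 0.44, edgeR adjusted p = 0.0319), whereas *Pdgfrb*, *Cspg4* and *Notch3* had log2 fold changes of -0.01, -0.74 and 0.20 (edgeR adjusted p = 0.95, 0.15 and 0.28). Of the tested smooth muscle markers, *Acta2* was called higher (log2 fold change 1.24, edgeR adjusted p = 0.0461). *Myh11*, *Smtn* and *Cnn1* had log2 fold changes of 0.01, 0.24 and -2.17 (edgeR adjusted p = 0.99, 0.22 and 0.10). Endothelial markers summed to 641 to 730 CPM and 744 to 873 CPM. The part of these and of the lower cardiomyocyte marker sum in the values of *Kcnj11* and *Kcnj8* was not tested, and fewer cells of a type cannot be told apart from less RNA per cell in whole tissue. *Abcc9* and *Abcc8*, the sulfonylurea receptor partners, had log2 fold changes of 0.14 and -0.07 (edgeR adjusted p = 0.60 and 0.85).

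*Kcnj3* and *Kcnj5*, which together form the acetylcholine-gated channel and are best known from atrium and nodes, were at 13.1 to 58.2 CPM and 51.4 to 96.5 CPM in MLPKO and at 42.0 to 61.0 CPM and 44.5 to 94.7 CPM in cRADΔ/Δ-MLPKO. Their log2 fold changes were 0.37 (SE 0.28, edgeR adjusted p = 0.49) and -0.07 (SE 0.20, edgeR adjusted p = 0.88). The low end of *Kcnj3* in MLPKO was mouse 2 at 13.1 CPM, with the other 4 at 37.8 to 58.2 CPM, and without it the log2 fold change was 0.15. Of 15 inward rectifier genes 9 were tested, with 1 called in edgeR, 3 in DESeq2 and 5 at an unadjusted edgeR p under 0.05. Over all genes tested the shares were 2.74%, 9.65% and 21.6%, and the inward rectifiers were not tested as a set.

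None of the 20 tested voltage-gated alpha subunits, of 40 in the family, passed in edgeR, DESeq2 or limma-voom. Over all 13453 genes tested, edgeR called 2.74%, DESeq2 9.65% and limma-voom 340 genes. An unadjusted edgeR p under 0.05 was reached by 2 of the 20 (*Kcna6* and *Kcng2*), against 21.6% of all genes tested. In edgeR 14 had a log2 fold change above 0 and 6 below, with a median of 0.08. *Kcna5*, the pore of the ultrarapid delayed rectifier, was at 11.9 to 22.5 CPM in MLPKO and 14.3 to 26.8 CPM in cRADΔ/Δ-MLPKO (log2 fold change 0.36, SE 0.19, edgeR adjusted p = 0.30). *Kcng2* was at 174 to 243 CPM and 144 to 191 CPM, a log2 fold change of -0.29 (SE 0.11, edgeR adjusted p = 0.155). *Kcnh2* was at 42.8 to 92.8 CPM and 62.6 to 81.7 CPM, and *Kcnq1*, the pore of the slow delayed rectifier, at 22.2 to 42.8 CPM and 27.7 to 37.9 CPM (log2 fold changes 0.16 and 0.16, SE 0.19 and 0.17, edgeR adjusted p = 0.69 and 0.62). For these last 2 genes every cRADΔ/Δ-MLPKO mouse lay within the MLPKO range. Without MLPKO mouse 2 their log2 fold changes were 0.06 and 0.08. *Kcnq1* shares exon sequence with the antisense *Kcnq1ot1*, *Kcnd3* with *Kcnd3os*, and *Kcng2* with *Slc66a2* and others on the other strand. *Kcna6*, a Kv1 pore best known from neurons, had the largest fold change in size of the family. It was at 0.380 to 1.68 CPM in MLPKO and 0.312 to 0.847 CPM in cRADΔ/Δ-MLPKO (log2 fold change -0.96, SE 0.37, edgeR adjusted p = 0.155). It rested on 12 to 63 raw counts in MLPKO. Without MLPKO mouse 2 its log2 fold change was -1.16 (edgeR adjusted p = 0.0613).

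Among auxiliary subunits 7 of 16 were tested, and *Kcnip2* was the 1 called in edgeR, against 2.74% of all genes tested. *Kcne1*, the partner of *Kcnq1*, was at 0.728 to 3.41 CPM and 1.31 to 2.16 CPM, with MLPKO mouse 4 highest and the other 4 MLPKO mice at 0.728 to 1.06 CPM, below every cRADΔ/Δ-MLPKO mouse. Its log2 fold change was 0.22 (SE 0.40, edgeR adjusted p = 0.80), and without MLPKO mouse 4 it was 0.84. *Kcnmb1*, the smooth muscle subunit of the large-conductance calcium-activated channel, was at 0.971 to 2.47 CPM and 1.26 to 2.27 CPM (edgeR adjusted p = 0.70). Its log2 fold change was 0.21, and 0.42 without MLPKO mouse 2. Median log2 fold change of the 7 genes was 0.22.

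Of 14 2-pore leak channels 5 were tested, with 0 called in edgeR, 1 in DESeq2, 0 in limma-voom and 2 at an unadjusted edgeR p under 0.05 (*Kcnk2* and *Kcnk6*). Over all genes tested, edgeR called 2.74% and DESeq2 9.65%, and 21.6% had an unadjusted edgeR p under 0.05. *Kcnk3*, the gene with the highest level per kb, was at 411, 334, 330, 334 and 345 CPM in MLPKO and 357, 348, 356, 385 and 348 CPM in cRADΔ/Δ-MLPKO. Its log2 fold change was 0.03 (edgeR adjusted p = 0.83), and its SE of 0.07 was the smallest of the 47 genes. *Kcnk2* (TREK-1, a stretch- and lipid-sensitive leak channel) was at 5.06, 5.23, 5.17, 4.93 and 4.37 CPM in MLPKO and 4.19, 4.22, 3.55, 3.90 and 3.57 CPM in cRADΔ/Δ-MLPKO. The groups did not overlap, the gap being from 4.22 to 4.37 CPM, and the log2 fold change of -0.35 (SE 0.11) passed in DESeq2 (adjusted p = 0.0329) but not in edgeR (adjusted p = 0.0888). An exon of *Kcnk2* overlaps A430027H14Rik on the other strand. *Kcnk6*, a weakly conducting 2-pore channel, was at 3.65 to 4.63 CPM and 3.85 to 6.81 CPM (log2 fold change 0.39, SE 0.15, edgeR adjusted p = 0.147). *Kcnk5*, an alkaline-activated leak channel, was at 0.729 to 1.11 CPM and 0.273 to 0.871 CPM (log2 fold change -0.64, SE 0.33, edgeR adjusted p = 0.28).

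Calcium- and sodium-activated channels numbered 8, with 6 tested, 0 called in edgeR, 1 in DESeq2, 0 in limma-voom and 1 at an unadjusted edgeR p under 0.05 (*Kcnt1*). Shares over all genes tested were 2.74% in edgeR, 9.65% in DESeq2 and 21.6% at an unadjusted edgeR p under 0.05. *Kcnt1*, a sodium-activated pore, was at 0.578, 0.475, 0.809, 1.04 and 0.662 CPM in MLPKO and 1.14, 1.05, 1.5, 1.07 and 1.38 CPM in cRADΔ/Δ-MLPKO, on raw counts of 15 to 41 and 38 to 61. The groups did not overlap but nearly met at MLPKO mouse 4 and cRADΔ/Δ-MLPKO mouse 2. The log2 fold change was 0.77 (SE 0.24, edgeR adjusted p = 0.0941, DESeq2 adjusted p = 0.0408), and without MLPKO mouse 4 it was 0.94 and passed in edgeR (adjusted p = 0.0434). *Kcnma1*, the pore of the large-conductance calcium-activated channel, was at 0.320 to 1.62 CPM and 0.200 to 0.598 CPM, a log2 fold change of -0.70 (SE 0.49, edgeR adjusted p = 0.44) that was -0.11 without MLPKO mouse 2. *Kcnn2*, a small-conductance calcium-activated channel, was at 6.53 to 14.0 CPM and 9.34 to 14.4 CPM (edgeR adjusted p = 0.58). Its log2 fold change was 0.20, and 0.07 without MLPKO mouse 2.

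**Figure D5:**
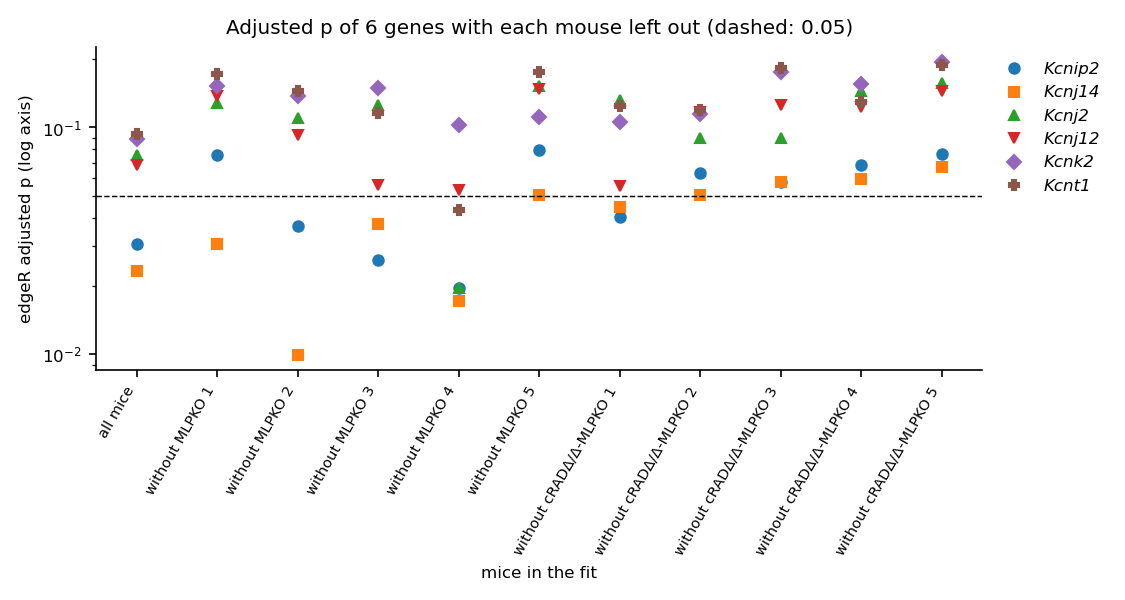
Adjusted p in edgeR (log axis) of the 6 genes called by edgeR or DESeq2, fitted on all 10 mice and again 10 times on 9 mice. *Kcnip2* goes from 0.0308 to at most 0.0794 and *Kcnj14* from 0.0234 to at most 0.0668, and *Kcnj2* and *Kcnt1* fall under the dashed line at 0.05 without MLPKO mouse 4.

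Outside the 93 genes, 21 of 26 partner genes of the same machinery were tested (sulfonylurea receptors, channel partners, *Irx* factors, sodium-potassium pump subunits and pacemaker channels). Of these 21, edgeR called 1, against 2.74% of all genes tested. *Lrrc52*, which encodes a gamma subunit that can bind the large-conductance calcium-activated and related channels, was at 0.509, 0.127, 0.770, 1.01 and 0.574 CPM in MLPKO and 2.15, 1.02, 3.80, 3.21 and 2.47 CPM in cRADΔ/Δ-MLPKO. The highest MLPKO mouse and the lowest cRADΔ/Δ-MLPKO mouse were almost level. On the log2 scale it was higher by 2.05 (SE 0.44, edgeR adjusted p = 0.0334), on raw counts of 4 to 144. DESeq2 called 3 of the 21, *Lrrc52* and the pump subunit *Atp1b3* higher (log2 fold change 0.20, DESeq2 adjusted p = 0.0108) and *Lrrc55*, a related gamma subunit, lower (-0.86, DESeq2 adjusted p = 0.0200). Over all genes tested, DESeq2 called 9.65%.

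The spread between mice was wider for these genes than over all genes tested. The median SD of log2 CPM over the 47 was 0.386 in MLPKO and 0.296 in cRADΔ/Δ-MLPKO, against 0.186 and 0.150 over all genes tested. It was larger in MLPKO for 31 of the 47 (66.0%, against 61.9% of all genes). Of the 47, 24 were under 5 CPM in every mouse, and the part of low counts in the spread was not tested. In the 5 genes highest per kb the SD in MLPKO was 0.13 (*Kcnk3*), 0.37 (*Kcnip2*), 0.14 (*Kcnj11*), 0.23 (*Kcng2*) and 0.49 (*Kcnh2*). For the same genes in that order it was 0.06, 0.22, 0.08, 0.16 and 0.17 in cRADΔ/Δ-MLPKO. In cRADΔ/Δ-MLPKO, mouse 3 was lowest in 17 of the 47 (36.2%, against 23.3% of all genes).

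Genes under the filter are given as raw counts only. *Kcne5*, an auxiliary subunit, had 2 to 26 counts in MLPKO and 0 to 4 in cRADΔ/Δ-MLPKO, and *Kcnj6*, an acetylcholine-gated pore of neurons, had 4 to 35 and 0 to 14. *Kcnc2* had 0 to 24 and 2 to 20, *Kcng4* 0 to 24 and 2 to 20, *Kcnc4* 4 to 20 and 6 to 14, *Kcns1* 2 to 14 and 2 to 20, and *Kcna3* 0 to 7 and 2 to 18, all voltage-gated alpha subunits. The auxiliary subunits *Kcnab3*, *Kcne3* and *Kcnip1* had 2 to 10 and 1 to 16, 0 to 12 and 0 to 8, and 4 to 13 and 0 to 12 counts. *Kcnk4* and *Kcnk1*, 2-pore channels, had 1 to 14 and 6 to 19, and 0 to 6 and 0 to 16, and *Kcnn4*, an intermediate-conductance calcium-activated channel, 4 to 20 and 4 to 20. Counts from 1 to 20 were even in 73.7% to 80.3% of cases per library, and how this arose was not tested.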

How the data were processed

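One poly(A) library per mouse was sequenced by Novogene. Per the labels and the submitters' processing notes, the authors ran FastQC, STAR on GRCm39 and featureCounts. They deposited counts of reads per gene with no scaling. Settings for strand, read pairs and shared reads are not given in the sources used here. Genes were named by GENCODE M39. A gene was tested where 6 or more of the 10 mice exceeded 10 counts and its name was no predicted Gm or Rik name, as in the study. This left 13453 genes, more than the study reports for its ranked gene set analysis. Counts were scaled with TMM and genotypes compared with the two-sided quasi-likelihood test of edgeR 4.0.16 (R 4.3.3), with Benjamini-Hochberg adjustment over all genes tested and a threshold of 0.05. DESeq2 1.42.0, which the authors used, and limma-voom (limma 3.58.1) were alternatives, with other size factors, filters, robust dispersion, a replicate block and leaving out each mouse. The code was tested on simulated counts of 13453 genes, 200 of them changed. There edgeR recovered 177 with 8 false calls, limma-voom 178 with 8, and DESeq2 185 with 46. How many of the genes called by DESeq2 alone in the mice are false calls was not tested.

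The genes named are those called by edgeR or DESeq2, 18 genes of the main ventricular and vascular potassium currents, the 6 largest fold changes, the 5 highest levels per kb, genes whose groups do not overlap, and, as raw counts, genes under the filter with more than 10 counts in a mouse. *Kcnh1*, *Kcnj10* and *Kcnk6* were named after their values were seen. The values of 1 tested gene are not reported here. Members and lists were chosen with earlier results of these data known. CPM per kb uses the union exon length. Of the 47 tested genes, 23 have an exon that overlaps another gene, in each case on the other strand. Mice are separate animals.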

Additional observations from a re-analysis of the deposited data

Results flagged for a closer look

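Among 48 groups of 5 mice (24 named genes in 2 genotypes), 5 had a mouse far from its nearest neighbour. The gap exceeded Dixon's 95% critical value of 0.71 as a share of the group's range. Chance gives about 1 in 20 for normally distributed values, and whether these CPM values are so distributed was not tested. *Kcna5* was 22.5 CPM in MLPKO mouse 3, with the others at 11.9 to 14.6 CPM. *Kcne1* was 3.41 CPM in MLPKO mouse 4, with the others at 0.728 to 1.06 CPM. *Kcnk3* was 411 CPM in MLPKO mouse 1, with the others at 330 to 345 CPM, and 385 CPM in cRADΔ/Δ-MLPKO mouse 4, with the others at 348 to 357 CPM. *Kcnma1* was 1.62 CPM in MLPKO mouse 2, with the others at 0.320 to 0.640 CPM.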

How the results depend on the processing

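In edgeR, 1 channel gene was called lower and 1 higher, with 369 of all genes. DESeq2 called 3 lower and 3 higher, with 1298 of all genes, and limma-voom called 0 lower and 1 higher, with 340 of all genes. Other size factors, filters and robust dispersion each left 1 lower and 1 higher. Leaving out 1 mouse gave 0 to 1 lower, 0 to 3 higher and 47 to 826 of all genes, with 0 lower and 0 higher without MLPKO mouse 5 or cRADΔ/Δ-MLPKO mice 2, 3, 4 or 5. In these 5 edgeR fits 5 to 7 channel genes were lower and 4 to 6 higher at an unadjusted p under 0.05, as were 6 and 5 with all mice, and 8 and 6 in limma-voom. With a mouse left out, the log2 fold change of *Kcnj5* ranged from -0.19 (without MLPKO mouse 2) to 0.074 (without cRADΔ/Δ-MLPKO mouse 3) and changed sign also without MLPKO mouse 1. Mouse numbers recur in both groups, the labels do not say that the mice are paired, and the main fit treats them as unpaired. Same-numbered mice correlated at -0.04 to 0.15, and 2 of 5 MLPKO mice correlated best with their own number. Such correlations cannot decide whether litters or processing batches were shared. A replicate block on the number called 2 lower and 1 higher (*Kcnj14*, *Kcnj12* and *Kcnj2*) and 281 of all genes, with *Kcnip2* at an adjusted p of 0.0524. The SE of the log2 fold change was 0.49 for *Kcnma1*, with 9 to 51 raw counts, and 0.39 for *Kcnd2*, with 234 to 1928.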
